A study of Mus musculus with 6 samples.

Results

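CD1d lipid presentation and the CXCL16-CXCR6 axis were followed through 9 genes of 55357 in the table. They were chosen by name, as the rows whose symbol was Cd1d1, Cd1d2, Psap, Npc2, Gla, Mttp, Ugcg, Cxcl16 or Cxcr6, and each symbol occurred once. The study asked how folinic acid (FA), a reduced folate, changes the tumour microenvironment, with natural killer T (NKT) cells as its named subject. C57BL/6J mice carried subcutaneous tumours of KPC1242, a mouse pancreatic ductal adenocarcinoma line, after injection of 250000 cells. The FA group (3 tumours) received 2 mg FA by gavage each day from day 8 to day 12, the control group (3 tumours) received phosphate-buffered saline (PBS) on the same days, and all tumours were collected on day 14. The sources used here give neither age nor sex of the mice, and each tumour gave 1 library.

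NKT cells are T lymphocytes that recognise lipids rather than peptides. The lipid is held in the groove of CD1d, a relative of MHC class I that pairs with beta-2-microglobulin, collects lipids in endosomes and lysosomes, and returns to the cell surface. Helper proteins load and trim these lipids. CXCL16 is a chemokine made as a membrane-anchored protein, and its receptor CXCR6 is carried by NKT cells and by other activated T cells.

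Mice have a pair of CD1d genes next to each other on chromosome 3, and their sequences show what a read can tell apart. Cd1d1 encodes the presenting molecule, while Cd1d2 is classed as a transcribed pseudogene by RefSeq (GRCm38.p6) and as a polymorphic pseudogene by GENCODE M21 (GRCm38). In the longest coding Cd1d1 transcript and the longest Cd1d2 transcript of GENCODE M21, 1236 bases could be aligned, and 96.5% of them were identical. The stretches printed here carry the differences, which are in capitals. In the first pair, the coding sequence of Cd1d2 lacks 1 base that Cd1d1 has, the isolated capital C, beside 2 adjacent substitutions.
Cd1d1: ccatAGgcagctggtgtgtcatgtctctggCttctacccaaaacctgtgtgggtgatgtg
Cd1d2: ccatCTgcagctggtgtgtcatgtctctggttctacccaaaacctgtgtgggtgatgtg
Read from the same start codon, the Cd1d1 frame ran for 336 codons before a stop, and the Cd1d2 frame for 237 codons, with the missing base at codon 230. The second pair is the stretch of 60 coding bases with the most differences, 8 in number.
Cd1d1: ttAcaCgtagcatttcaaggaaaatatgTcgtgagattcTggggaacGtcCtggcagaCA
Cd1d2: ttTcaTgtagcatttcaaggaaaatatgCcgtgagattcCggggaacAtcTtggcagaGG
Elsewhere the copies ran together for up to 245 identical bases. Of all 100-base windows of that Cd1d1 transcript, 14.6% also occurred in a Cd1d2 transcript, and 18.8% of the Cd1d2 windows occurred in a Cd1d1 transcript. Reads from such windows can be assigned to either gene, so the low values of Cd1d2 are uncertain.

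Values are TPM, an abundance scaled to the same total in every tumour and by transcript length, so levels of different genes can be set side by side. None of the 7 genes tested with limma differed between FA and PBS tumours past the test. The values of the groups overlapped for each of the 9 genes. Differences were taken on the log2(TPM + 1) scale with limma, over the 15023 genes that averaged 1 TPM or more in the 6 tumours. That filter kept 7 of the 9 genes, all but Cxcr6 and Cd1d2. At an adjusted p under 0.05, 0 of these 7 genes were called, where 0% of all tested genes were. At an unadjusted p under 0.05 the count was again 0 of 7, beside 1.28% of all tested genes. For 0 of 7 genes did the groups not overlap, beside 4.69% of all tested genes. The median difference, FA minus PBS, was -0.01 over the 7 genes and 0.0016 over all tested genes, with 2 genes higher and 5 lower on average.

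**Figure D1:**
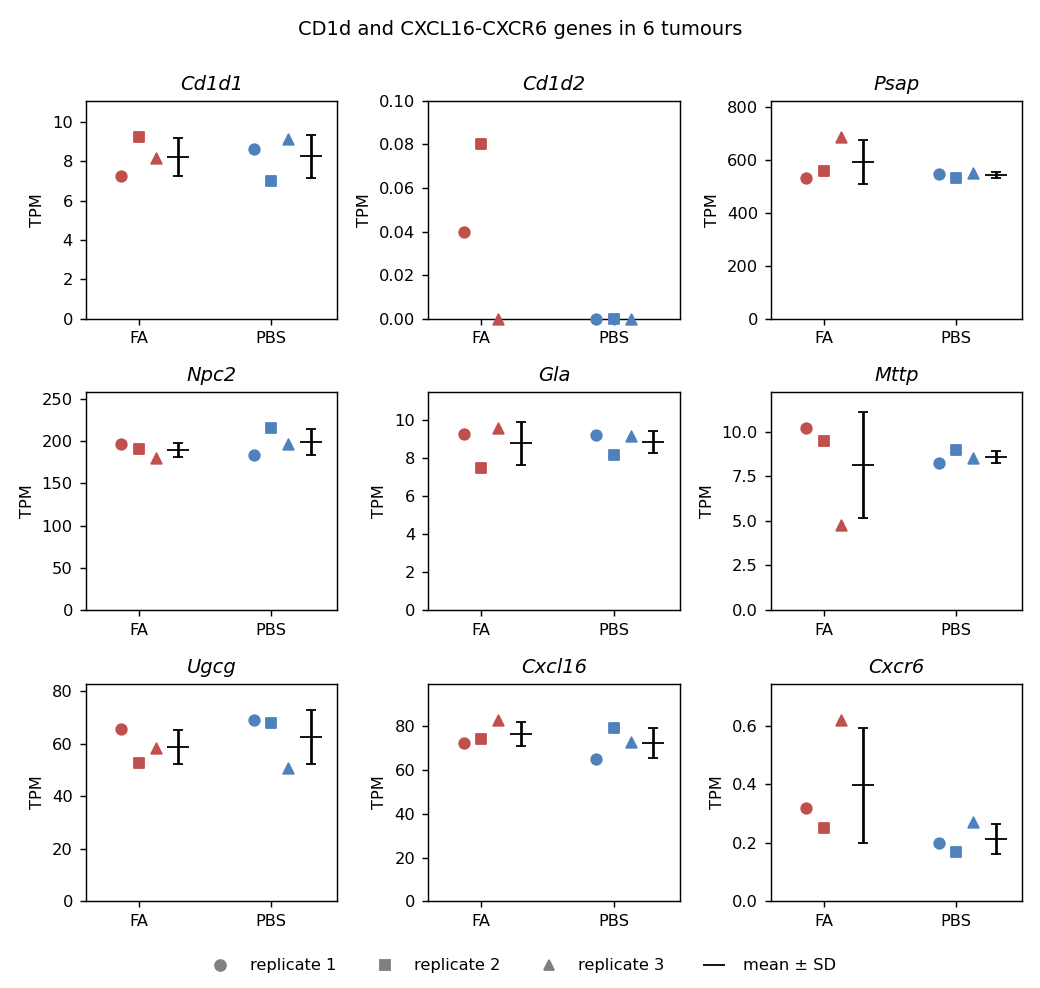
TPM of the 9 genes (vertical axes, each from 0) in 3 FA and 3 PBS tumours, with the replicate number as the symbol and the group mean ± SD as a bar, left out for Cd1d2, which is listed at 0 in 4 tumours. The groups overlap in every panel; FA replicate 3 is the highest for Psap, Cxcl16, Gla and Cxcr6 and the lowest for Mttp and Npc2.

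Epithelial transcripts were abundant in these tumours and most lymphocyte transcripts were of low TPM. Keratins 18 and 8 (Krt18 and Krt8), of ductal epithelium, were the highest of 5 epithelial markers, at 1577 to 1829 TPM and 1448 to 1908 TPM. By contrast, 16 of 24 markers of NKT and T lymphocytes averaged under 1 TPM, and 3 were listed at 0 in all 6 tumours. These were Il17a and the receptor gene segments Trav11 and Traj18, which are joined in the alpha chain of the invariant NKT receptor. In a table without counts, a 0 for such short segments can be a failed estimate. Trbc2, a constant part of the T cell receptor beta chain, stood at 6.68 to 9.93 TPM, and the summed level of the 24 was 28.6 to 33.8 TPM in FA and 29.7 to 38.3 TPM in PBS tumours. Across genes, which are not replicates, FA replicate 3 correlated less with the others (0.949 to 0.968) than those did among themselves (0.981 to 0.987), and it held the highest value of 29.4% and the lowest of 37.5% of all tested genes. In whole tumours, fewer cells of a type and less RNA per cell cannot be told apart.

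The presenting molecule itself was expressed at a modest level that barely moved. Cd1d1 (ENSMUSG00000028076) stood at 7.27, 9.24 and 8.16 TPM in FA replicates 1 to 3 and at 8.64, 7.02 and 9.12 TPM in PBS replicates 1 to 3. The highest and lowest tumours were 1 of each treatment, FA replicate 2 and PBS replicate 2, and differed 1.32-fold. Group means were 8.22 ± 0.987 TPM in FA and 8.26 ± 1.10 TPM in PBS (SD, n = 3 each). The log2 difference was -0.0041 ± 0.14 (SE), with a 95% interval from -0.34 to 0.33 and an adjusted p of 1 by limma. On the linear scale that interval runs from 0.792-fold to 1.26-fold. Cd1d1 was higher than 33.3% of all tested genes, and its spread within groups, an SD of 0.17 in log2, lay above that of 52% of them.

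Cd1d2 (ENSMUSG00000041750) was listed at 0.04 TPM in FA replicate 1, 0.08 TPM in FA replicate 2 and 0 in the other 4 tumours. Nearly all CD1d signal was thus assigned to Cd1d1 in each tumour. The values are given without a fold because the PBS tumours are all listed at 0 and reads can be shared with Cd1d1.

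Genes for the assembly and traffic of CD1d were far more abundant than Cd1d1. B2m, the beta-2-microglobulin that CD1d shares with MHC class I, stood at 594, 571 and 724 TPM in FA tumours and 588, 640 and 527 TPM in PBS tumours. That was 57.8 to 91.1 times the level of Cd1d1 in the same tumour. The folding chaperone calreticulin (Calr) stood at 781 to 841 TPM and the disulfide isomerase Pdia3 at 565 to 632 TPM. Canx, the chaperone calnexin, had the smallest p of the list, at 328 to 345 TPM in FA and 304 to 335 TPM in PBS tumours. Of the 11 genes in this list, which also holds the AP-3 adaptor subunits that send CD1d to lysosomes, 0 passed in either direction, and 7 were higher and 4 lower on average.

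Lysosomal lipid loading was carried by abundant transcripts. Psap (ENSMUSG00000004207) encodes prosaposin, which is cut into the saposins that lift lipids out of membranes and place them on CD1d. It was the highest of the 9 genes and above 98.5% of all tested genes, at 533, 559 and 687 TPM in FA and 547, 532 and 553 TPM in PBS tumours. FA replicate 3 stood above the other 5 tumours, which spanned only 532 to 559 TPM. The means were 593 ± 82.0 TPM and 544 ± 10.6 TPM, a log2 difference of 0.12 ± 0.10 with an interval from -0.12 to 0.35 (adjusted p of 1, limma). Without FA replicate 3 the difference was 0.0066 ± 0.05.

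Markers of several cell types were, like Psap, highest in that tumour. All 6 macrophage markers were highest in FA replicate 3. Their summed level was 303 to 559 TPM in FA and 283 to 363 TPM in PBS tumours. C1qa (344 TPM in FA replicate 3, 172 to 219 TPM elsewhere) and Cd68 (66.0 TPM, against 36.0 to 44.1 TPM) led them. Among the other tumours the macrophage sum was highest in PBS replicate 1 and lowest in PBS replicate 3, where Psap stood at 547 and 553 TPM. All 5 fibroblast markers, led by Col1a1 and Col1a2, were also highest in FA replicate 3. Their sums were 1036 to 3526 TPM in FA and 917 to 1813 TPM in PBS tumours. The 4 skeletal muscle markers, led by Acta1 and Ckm, were highest in FA replicate 3 too. They summed to 11.0 to 868 TPM in FA and 12.5 to 128 TPM in PBS tumours. All 3 endothelial and all 4 adipocyte markers were highest in FA replicate 3 as well. The part of these cell types in the level of Psap was not tested.

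Npc2 (ENSMUSG00000021242), a small lysosomal carrier of cholesterol that can also transfer lipids to CD1d, did not share this pattern. It stood at 197, 191 and 180 TPM in FA and 184, 215 and 197 TPM in PBS tumours. FA replicate 3 was the lowest here and PBS replicate 2 the highest. The means were 189 ± 8.22 and 199 ± 15.6 TPM, with a log2 difference of -0.07 ± 0.08 and an interval from -0.25 to 0.12 (adjusted p of 1, limma). Npc2 was among the steadier genes, its spread within groups being above that of 19.6% of tested genes. The ratio of Psap to Npc2 was 3.81 in FA replicate 3 and 2.48 to 2.98 in the other tumours, with an exact two-sided permutation p of 0.5 between treatments, where 3 against 3 cannot go below 0.1.

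Gla (ENSMUSG00000031266) encodes alpha-galactosidase A, which removes terminal alpha-galactose from glycolipids and so can destroy ligands of NKT cells. It stood at 9.30, 7.49 and 9.57 TPM in FA and 9.21, 8.18 and 9.17 TPM in PBS tumours. The FA tumours held both the highest and the lowest value. The log2 difference was -0.01 ± 0.12, with an interval from -0.31 to 0.28 (adjusted p of 1, limma). Per transcript length, Psap exceeded Gla 57.4- to 74.7-fold within a tumour.

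Of 20 further lysosomal genes, 0 passed in either direction, and 6 were higher and 14 lower on average in FA, with a median of -0.04. The protease genes Ctsl (478 to 604 TPM) and Ctsb (376 to 536 TPM) and the membrane protein gene Lamp1 (464 to 514 TPM) were the highest. The smallest p was that of Tfeb, the transcription factor known for switching on lysosomal genes. Tfeb stood at 12.6, 13.1 and 10.2 TPM in FA and 14.2, 16.3 and 15.9 TPM in PBS tumours, so that all 3 FA values lay below the PBS values. Its log2 difference was -0.35 ± 0.12, with an unadjusted p of 0.0255 and an adjusted p of 1 (limma), so it did not pass. It was the only 1 of the 20 whose groups did not overlap, beside 4.69% of all tested genes.

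**Figure D2:**
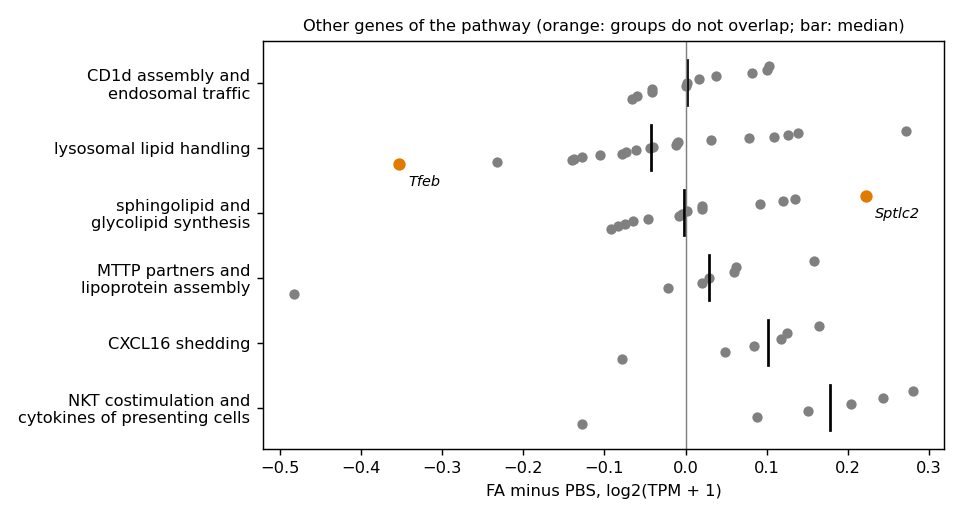
Log2 difference, FA minus PBS (horizontal axis), of each tested gene in 6 lists of the pathway, 1 point a gene, with the list median as a bar; orange points are genes whose groups do not overlap. Of 64 genes, 2 are orange (3.12%, beside 4.69% of all tested genes), Tfeb at -0.35 and Sptlc2 at 0.22. Neither passed the adjusted test.

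Mttp (ENSMUSG00000028158), microsomal triglyceride transfer protein, moves lipids onto apolipoprotein B in the endoplasmic reticulum and is also known to act in the loading of CD1d there. It was the most variable of the 7 tested genes. It stood at 10.2, 9.49 and 4.74 TPM in FA and 8.26, 8.94 and 8.53 TPM in PBS tumours. FA replicate 3 was 2.15-fold below FA replicate 1, while the PBS tumours had an SD of 0.342 TPM (n = 3). The log2 difference was -0.13 ± 0.26, with an interval from -0.74 to 0.48 (adjusted p of 1, limma). Without FA replicate 3 its direction turned, to 0.18 ± 0.09, with an unadjusted p of 0.105 by limma. The spread of Mttp within groups was above that of 86.9% of tested genes.

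Epithelial markers summed to 5349 TPM in that tumour, their highest level, and to 4430 to 5060 TPM in the other 5 tumours, 3 of the 5 being highest there and Cdh1 lowest. Their part in the level of Mttp was not tested. Among 8 genes of lipoprotein assembly, 7 were tested and 0 passed, with 5 higher and 2 lower on average. P4hb, the disulfide isomerase that forms the second subunit of the transfer protein, stood at 798 to 952 TPM. Dgat1, which completes triglyceride synthesis, stood at 42.0 to 52.8 TPM, and Sar1b, a GTPase of vesicle export, at 42.0 to 52.8 TPM. Apoa1, which had the smallest p, was lowest in FA replicate 3 as well, at 4.88, 6.28 and 1.94 TPM in FA and 5.30, 8.64 and 4.65 TPM in PBS tumours.

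Mttp overlaps the gene Trmt10a on the opposite strand over 7.4% of its exon bases in GENCODE M21. Trmt10a stood at 8.60 to 13.3 TPM, with its highest value in FA replicate 3. The libraries were stranded, but the sources used here do not say whether counting used the strand.

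Ugcg (ENSMUSG00000028381), glucosylceramide synthase, makes the first sugar-bearing lipid of most glycosphingolipids. It stood at 65.5, 52.5 and 58.2 TPM in FA and 69.0, 67.7 and 50.8 TPM in PBS tumours. Both the highest and the lowest tumour were PBS tumours. The log2 difference was -0.08 ± 0.14, with an interval from -0.42 to 0.26 (adjusted p of 1, limma), and it ranged from -0.22 without PBS replicate 3 to -0.0047 without PBS replicate 1 and -0.0048 without FA replicate 2.

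Of 17 other genes of sphingolipid and glycolipid synthesis, 14 were tested, 0 passed, and 7 were higher and 7 lower on average. Cers2, a ceramide synthase, stood at 204 to 217 TPM, and the desaturase gene Degs1 at 103 to 117 TPM. Sptlc2, a subunit of serine palmitoyltransferase, the enzyme that starts sphingolipid synthesis, had the smallest p. It stood at 134, 140 and 164 TPM in FA and 122, 131 and 121 TPM in PBS tumours, with all 3 FA values above the PBS values. Its log2 difference was 0.22 ± 0.09, with an unadjusted p of 0.0449 and an adjusted p of 1 (limma), so it did not pass. Sptlc2 and Tfeb made 2 of 64 tested genes over the 6 pathway lists whose groups did not overlap, or 3.12%, beside 4.69% of all tested genes.

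**Figure D3:**
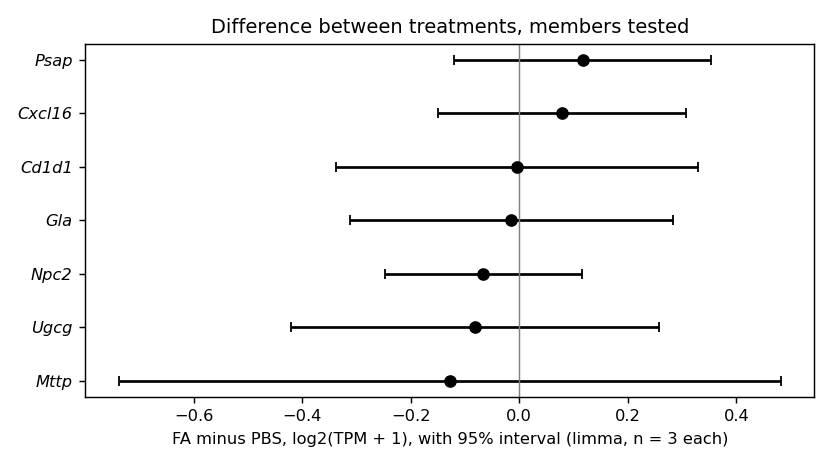
Log2(TPM + 1) difference, FA minus PBS (horizontal axis), of the 7 tested genes with 95% intervals from limma (3 tumours a group). All 7 intervals include 0; Npc2 has the narrowest, -0.25 to 0.12, and Mttp the widest, -0.74 to 0.48.

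The chemokine was plentiful and its receptor scarce. Cxcl16 (ENSMUSG00000018920) stood at 72.2, 74.1 and 82.8 TPM in FA and 65.1, 79.1 and 72.8 TPM in PBS tumours. FA replicate 3 was the highest and PBS replicate 1 the lowest, 1.27-fold apart. The means were 76.4 ± 5.67 and 72.3 ± 6.99 TPM, a log2 difference of 0.08 ± 0.10 with an interval from -0.15 to 0.31 (adjusted p of 1, limma). That interval corresponds to 0.902-fold to 1.24-fold. Cxcl16 was above 85.4% of tested genes in level and exceeded Cd1d1 7.54- to 11.3-fold within a tumour. Its direction held without any 1 tumour, with differences from 0.007 to 0.15, the lowest without PBS replicate 1.

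Zmynd15, a gene on the opposite strand, covers 18.3% of the exon bases of Cxcl16 in GENCODE M21 and stood at 6.83 to 10.7 TPM. Reads from that stretch can belong to either gene if the strand was not used.

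Genes for the release of CXCL16 from the membrane were expressed in every tumour. Adam10, a protease known to cut it, stood at 62.9 to 78.2 TPM and was lowest in FA replicate 3. The protease inhibitor gene Timp3 stood at 42.1 to 62.8 TPM. Rhbdf1, which encodes iRhom1, a partner of the related protease ADAM17, had the smallest p of the list, at 39.8, 49.3 and 46.4 TPM in FA and 38.8, 39.6 and 41.9 TPM in PBS tumours. Of 6 genes, 0 passed, and 5 were higher and 1 lower on average, with a median of 0.10.

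Cxcr6 (ENSMUSG00000048521) averaged under 1 TPM and was not among the genes tested by limma. It stood at 0.32, 0.25 and 0.62 TPM in FA and 0.20, 0.17 and 0.27 TPM in PBS tumours. FA replicate 3 was the highest, and PBS replicate 3 lay above FA replicate 2. For log2(TPM + 1), a two-sided exact permutation test gave p = 0.2, and with 20 assignments the smallest possible p is 0.1. In a fit with no filter, over 31347 genes, the log2 difference was 0.19 ± 0.11 with an adjusted p of 0.986 by limma. The ratio of Cxcl16 to Cxcr6 was 226, 296 and 134 in the FA tumours, against 326, 465 and 270 in the PBS tumours (two-sided exact permutation p of 0.2).

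Markers of T cells went both ways. Of 24 lymphocyte markers 8 were tested and 0 passed, with 2 higher and 6 lower on average in FA and a median of -0.11. Trbc2 stood at 7.27, 6.68 and 6.77 TPM in FA and 9.79, 9.93 and 7.34 TPM in PBS tumours, so that all 3 FA values lay below the PBS values. Its log2 difference was -0.33 ± 0.14, with an unadjusted p of 0.0483 and an adjusted p of 1 (limma). It was the only 1 of the 8 tested markers whose groups did not overlap, beside 4.69% of all tested genes. Trac, the constant part of the T cell receptor alpha chain, stood at 2.11, 2.73 and 3.74 TPM in FA and 2.21, 1.48 and 1.97 TPM in PBS tumours, highest in the same tumour as Cxcr6. Zbtb16, the transcription factor that marks NKT cells, stood at 0.03, 0.05 and 0.26 TPM in FA and 0.13, 0.06 and 0.07 TPM in PBS tumours. In all, 10 of the 24 markers were highest in FA replicate 3. Their part in the level of Cxcr6 was not tested. Cxcr6 also lies within Fyco1, a gene on the opposite strand with which it shares no exon base in GENCODE M21, and Fyco1 stood at 5.30 to 7.02 TPM. Total RNA contains introns, so a count without strand could take in reads of Fyco1.

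Among genes for signals that presenting cells send to NKT cells, the levels ran from above that of Cd1d1 to under 1 TPM. Of 8 genes for costimulation and cytokines, 6 were tested and 0 passed, with 5 higher and 1 lower on average and a median of 0.18. Il18 was the highest, at 11.3 to 18.7 TPM, followed by Il15, at 7.70 to 13.2 TPM. Il15ra stood at 3.29, 4.17 and 10.4 TPM in FA and 7.75, 3.0 and 3.34 TPM in PBS tumours. Cd40 had the smallest p, at 4.79, 4.13 and 7.41 TPM in FA and 4.45, 3.43 and 4.77 TPM in PBS tumours. FA replicate 3 was the highest for 5 of the 8 genes. The dendritic cell markers, led by Itgax and Zbtb46, were highest there for 4 of 5 genes, with sums of 10.2 to 20.4 TPM in FA and 10.6 to 13.2 TPM in PBS tumours. The 4 B cell markers, led by Cd79b and Cd79a, summed to 0.80 to 2.48 TPM in FA and 0.95 to 1.13 TPM in PBS tumours. The part of either list in these levels was not tested.

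By mean level the 9 genes ran from Psap through Npc2, Cxcl16, Ugcg, Gla, Mttp, Cd1d1 and Cxcr6 to Cd1d2. Psap lay above Npc2, and Npc2 above Cxcl16, in 6 of 6 tumours, and so did Ugcg above Gla and Cd1d1 above Cxcr6. Cxcl16 exceeded Ugcg in 5 of 6 tumours. Gla exceeded Cd1d1 in 5 of 6 tumours. Mttp could not be placed against these, since Gla exceeded it in 3 of 6 tumours and it exceeded Cd1d1 in 3 of 6.

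**Figure D4:**
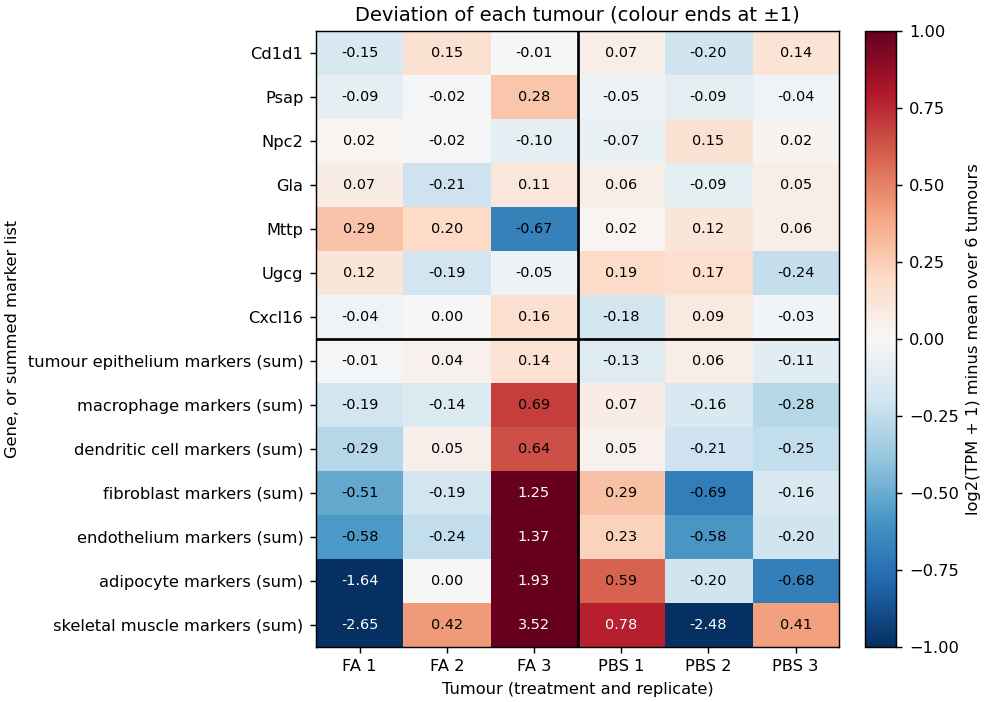
Each cell gives log2(TPM + 1) of a gene, or of the sum of a marker list, in 1 tumour minus its mean over the 6 tumours. FA replicate 3 is at 0.28 for Psap and -0.67 for Mttp, and at 0.69 for macrophage and 1.25 for fibroblast markers, while Cd1d1 is at -0.01.

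The genes did not follow a shared pattern over the tumours. FA replicate 3 was the highest for 4 of the 9 genes and the lowest for 2. Likeness was measured as the root mean square distance between standardised log2(TPM + 1) profiles over the 6 tumours, where 0 is an identical shape, among the 10688 named genes that averaged 5 TPM or more. The genes nearest to Cd1d1 were Pptc7, Ddx27 and Rbm10, at distances of 0.157, 0.179 and 0.197. Pptc7, a mitochondrial phosphatase, stood at 8.98 to 10.3 TPM. Nearest to Cxcl16 were Tns4, Dhrs7b and Eral1, at 0.138, 0.141 and 0.183. Tns4, an adhesion protein of epithelial cells, stood at 48.7 to 75.3 TPM and, like Cxcl16, was highest in FA replicate 3 and lowest in PBS replicate 1. The distance between Cd1d1 and Cxcl16 was 1.49, and Psap ranked 914 of 10688 in likeness to Cxcl16. With 6 tumours and this many genes, some close profiles are found for any gene.

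The spread of the 7 tested genes was near that of all tested genes. Their median SD within groups was 0.14 in log2, beside 0.16 for all tested genes, and the median size of their FA-PBS difference was 0.0793, beside 0.0813. The spread was above that of 86.9% of tested genes for Mttp, 63.5% for Ugcg and 52% for Cd1d1, and below the median of all tested genes for the other 4. Adipocyte and endothelial markers, by comparison, spread widely: Fabp4, the leading adipocyte marker, ranged from 12.2 to 150 TPM, and Pecam1 and Cdh5 from 17.8 to 69.3 TPM and from 13.3 to 54.7 TPM.

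**Figure D5:**
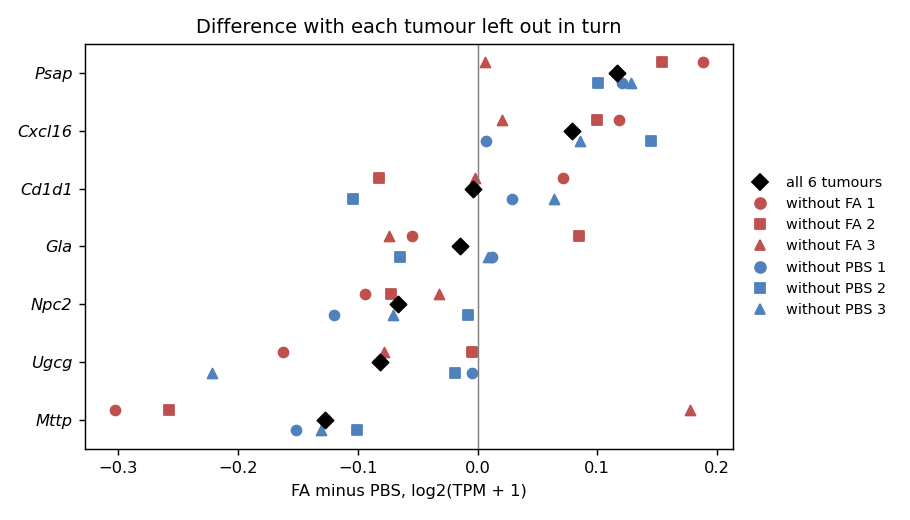
Log2(TPM + 1) difference, FA minus PBS (horizontal axis), of the 7 tested genes with all 6 tumours (black diamond) and with each tumour left out (red without an FA tumour, blue without a PBS tumour). Psap falls to 0.0066 and Mttp crosses to 0.18 without FA replicate 3, whereas Npc2 and Ugcg stay below 0 and Psap and Cxcl16 above 0 throughout.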

How the data were processed

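Whole-tumour RNA was sequenced from 3 FA and 3 PBS tumours. Stranded total RNA libraries were made from 4 µg of RNA (integrity number above 8) with 12 PCR cycles, per the labels' protocols. The authors deposited TPM for 55357 genes with 2 decimals; FastQC, STAR, RSEM and featureCounts appear in the submitters' processing notes, with no version or role, and the genome build is not given in the sources used here. TPM keeps no depth, so no counting interval is given. Columns were matched to tumours through the labels' descriptions, whose prefix differs between the treatments, so what it marks cannot be told apart from treatment.

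Values were fitted as log2(TPM + 1) with limma 3.58.1 in R 4.3.3 (FA against PBS, no covariate, variance trend, two-sided, Benjamini-Hochberg adjustment over the 15023 genes that averaged 1 TPM or more). The pseudocount understates changes of low genes. The fit was run on simulated data with planted changes and noise drawn independently for each gene. Those data hold no deviating tumour such as FA replicate 3, so they do not show what the fit can detect here. Errors are SD beside TPM and SE beside log2 differences. The p-values set the FA-PBS difference against the spread between tumours within groups. Nothing states that tumours came from separate mice, so the p-values speak for these tumours only. Genes named beside the 9 are the 3 highest and the smallest p of each pathway list, the 2 highest of each marker list, markers listed at 0 and the 3 nearest profiles of Cd1d1 and Cxcl16; Zbtb16, Trac, Cdh1 and genes overlapping the members were chosen after their values were seen. The members and lists were chosen with earlier results of these data known. Some genes picked this way are left out of the text. Alternatives covered the pseudocount, filter, scaling, leaving out each tumour, a replicate block, variance trend and array weights. The array weights stopped before their convergence tolerance was met. CD1d transcripts were aligned with Biopython 1.88.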

Additional observations from a re-analysis of the deposited data

How the results depend on the processing

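By limma, 0 genes were higher and 0 lower in FA, beside 192 genes at an unadjusted p under 0.05. Without a filter on low values 2 genes were higher, among 31347 tested, and without any 1 tumour the higher count stayed at 0 and the lower count was 0 to 1, the 1 gene being called without FA replicate 3. None of the 7 members tested passed in any of the 15 alternatives, and 97 of 105 of their differences kept their direction. Those of Psap, Npc2, Ugcg and Cxcl16 kept it in all 15, but each came close to 0 without 1 tumour: the ranges were 0.0066 (without FA replicate 3) to 0.19 for Psap, -0.12 to -0.0078 (without PBS replicate 2) for Npc2, -0.22 to -0.0047 (without PBS replicate 1) for Ugcg and 0.007 (without PBS replicate 1) to 0.15 for Cxcl16. The others crossed 0 when a tumour was left out, over ranges of -0.10 to 0.072 for Cd1d1, -0.074 to 0.084 for Gla and -0.30 to 0.18 for Mttp. Cd1d1 was at 0.072 without FA replicate 1, 0.03 without PBS replicate 1 and 0.06 without PBS replicate 3. Gla was at 0.084 without FA replicate 2, 0.01 without PBS replicate 1 and 0.0089 without PBS replicate 3. Mttp was at 0.18 without FA replicate 3 and at 0.10 with array weights. The cause was not tested. The median of all genes moved by less than 0.1 in every setting.

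With the replicate number as a block, 0 genes were higher and 0 lower, and no member changed direction, Cd1d1 being at -0.0041 and Psap at 0.12. The labels do not say that same-numbered tumours share anything beyond the number and, for pairs 1 and 2, the end of the description, and the deviations of pairs 1, 2 and 3 correlated at -0.208, 0.053 and -0.022 across genes. Since TPM carries no depth, the limit it sets on Cxcr6 and Cd1d2 is unknown.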
